A study of Mus musculus with 20 samples.

Results

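The HSP70 family genes are described here as 10 genes taken by name, Hspa1a, Hspa1b, Hspa2, Hspa4, Hspa4l, Hspa5, Hspa8, Hspa9, Hspa12a and Hspa13, out of 55487 gene entries, by a rule that uses no measured value, although the family was proposed with earlier results of these data known. Each of the 10 matched an entry in every library and passed the filter on low counts in every comparison. Messenger RNA came from hippocampal and cortical tissue of NMRI mice whose olfactory bulbs had been removed, an operation used to model sporadic Alzheimer's disease. Once a day for 21 days, beginning 14 days after surgery, the mice were given by the intranasal route either recombinant YB-1, a nucleic acid-binding protein, at 6.4 µg or human recombinant HSP70 at 4 µg. The 20 libraries form 4 groups of 5: hippocampus with YB-1, hippocampus with HSP70, cortex with YB-1 and cortex with HSP70. Every group was operated and treated, and no unoperated or vehicle-treated animals are analysed here, so a difference between YB-1 and HSP70 has no untreated baseline.

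HSP70 proteins are chaperones that bind exposed hydrophobic stretches of unfolded proteins and release them in a cycle driven by ATP hydrolysis. J-domain proteins start the cycle by stimulating hydrolysis, and nucleotide exchange factors end it by releasing ADP. Neurons rely on the constitutive members for clathrin uncoating, synaptic protein folding and the handling of aggregation-prone proteins, while the inducible members are made after heat or proteotoxic stress through heat shock factor 1.

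The promoters of the stress-inducible pair and of the endoplasmic reticulum member are shown so that the letters of the near-identical pair can be set side by side and the spaced stress element of Hspa5 can be read. The 250 bases before the annotated start were read from the RefSeq promoter table for GRCm38.p6, in which 7 of the 10 members were found. Hspa1a lies at chr17:34972157-34972406 and Hspa1b at chr17:34959239-34959488, both on the minus strand, and the Hspa5 promoter is at chr2:34771840-34772089 on the plus strand. Capitals mark the heat shock element core GAANNTTC and the CCAAT box, the second in either orientation, and in Hspa5 also the CCACG that follows a CCAAT box after 9 bases, the spacing of the endoplasmic reticulum stress element.
Hspa1a: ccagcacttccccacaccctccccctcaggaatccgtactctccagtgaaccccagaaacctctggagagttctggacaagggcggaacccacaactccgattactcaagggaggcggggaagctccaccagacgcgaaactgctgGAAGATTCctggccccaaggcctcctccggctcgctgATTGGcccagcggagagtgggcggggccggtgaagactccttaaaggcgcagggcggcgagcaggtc
Hspa1b: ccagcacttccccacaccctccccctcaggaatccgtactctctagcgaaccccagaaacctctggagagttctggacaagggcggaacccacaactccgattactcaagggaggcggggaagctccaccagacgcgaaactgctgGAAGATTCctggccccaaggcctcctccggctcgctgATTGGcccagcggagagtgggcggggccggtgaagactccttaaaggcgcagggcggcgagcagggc
Hspa5: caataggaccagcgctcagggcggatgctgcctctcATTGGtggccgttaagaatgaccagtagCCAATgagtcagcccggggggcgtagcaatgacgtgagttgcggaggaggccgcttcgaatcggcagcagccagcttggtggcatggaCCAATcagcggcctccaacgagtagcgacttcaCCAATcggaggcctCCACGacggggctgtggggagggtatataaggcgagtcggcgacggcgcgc
The Hspa1a and Hspa1b stretches were identical at 247 of 250 bases, and in both the heat shock core began at -104 and the reversed CCAAT box at -67 from the start. In Hspa5 there were 4 CCAAT boxes, of which the one at -65 was followed by CCACG. On both strands, 6.69% of 32851 promoters of the same length held the heat shock core, 0.466% held the core with a further GAA or TTC unit at the same spacing, 33.8% held CCAAT and 0.113% held CCAAT and CCACG at that spacing. The core of Hspa1a and Hspa1b had no such further unit in those exact letters directly beside it. Units with other letters were not searched for. Hspa2 held 1 CCAAT box, and none of these motifs was found in the windows of Hspa4, Hspa4l and Hspa12a. TATAAA on the gene's strand was in 7.59% of promoters and in none of the 7 members' windows.

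Libraries held 6414215 to 15148078 assigned reads and 16889 to 20712 detected genes. The hippocampal HSP70 replicate 5 and the cortical YB-1 replicate 4 had the fewest detected genes and stood apart from the other libraries. In cortex the depths did not overlap: the YB-1 libraries held 6414215 to 10763465 reads and the HSP70 libraries 12283392 to 15148078, so that treatment and what set the depth cannot be told apart there. The noncoding RNA Bc1, a short neuronal transcript, took between 3.92% and 20.8% of the assigned reads of a library. Of 12 hippocampus markers, 7 were called higher in the hippocampus by edgeR's test with each treatment, while Calb1 was called lower with HSP70. Of 12 cortex markers, 9 were called lower in the hippocampus with YB-1 and 10 with HSP70, while Fezf2 was called higher with HSP70. The summed level of each of these 2 lists did not overlap between the tissues. In bulk tissue, fewer cells of a type and less RNA per cell cannot be told apart.

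Expressed per length, as CPM (assigned reads scaled to a common library size) per kilobase of exon, the family was led in every group by Hspa8, the constitutive cytosolic chaperone HSC70. Hspa8 averaged 235 ± 16.1 CPM per kb in the hippocampus with YB-1 and 239.8 ± 27.8 in the hippocampus with HSP70, 228 ± 20.2 in the cortex with YB-1 and 226 ± 25.4 in the cortex with HSP70 (SD, n = 5 each). That was 66 ± 3.1% of the family's summed level per length in the hippocampus with YB-1 and 66.6 ± 5.16% with HSP70, and in cortex 68.6 ± 6.29% with YB-1 and 65.5 ± 5.76% with HSP70.

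Hspa5, which encodes the endoplasmic reticulum chaperone BiP, and Hspa9, which encodes the mitochondrial chaperone mortalin, came next, and their libraries overlapped in every group. In the hippocampus with YB-1 they averaged 36.7 ± 4.86 and 34.6 ± 2.9 CPM per kb. Hspa2, a member best known from male germ cells, Hspa4, an HSP110-type nucleotide exchange factor, and Hspa12a, a divergent member, followed at 18.8 ± 3.67, 11.6 ± 1.37 and 9.41 ± 0.729 CPM per kb in the same group. Hspa1b, one of the stress-inducible pair, stood at 3.97 ± 0.453 CPM per kb there. Hspa13, a microsome-associated member, and Hspa4l, the close relative of Hspa4, overlapped each other in every group, at 2.71 ± 0.509 and 2.27 ± 0.635 CPM per kb in the hippocampus with YB-1. The length was that of all annotated exons merged, 11792 bases for Hspa4l, 6834 for Hspa13 and 2803 for Hspa1b. Without the length, Hspa4l (26.8 CPM) and Hspa13 (18.5 CPM) lay above Hspa1b (11.1 CPM) in that group, so that their order rests on this length. Hspa1a, the other inducible gene, was the lowest of the 10 in all 4 groups, at 0.896 ± 0.23 CPM per kb in the hippocampus with YB-1, 1.4 ± 0.75 with HSP70, and 0.786 ± 0.294 in the cortex with YB-1 and 0.913 ± 0.192 with HSP70.

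**Figure D1:**
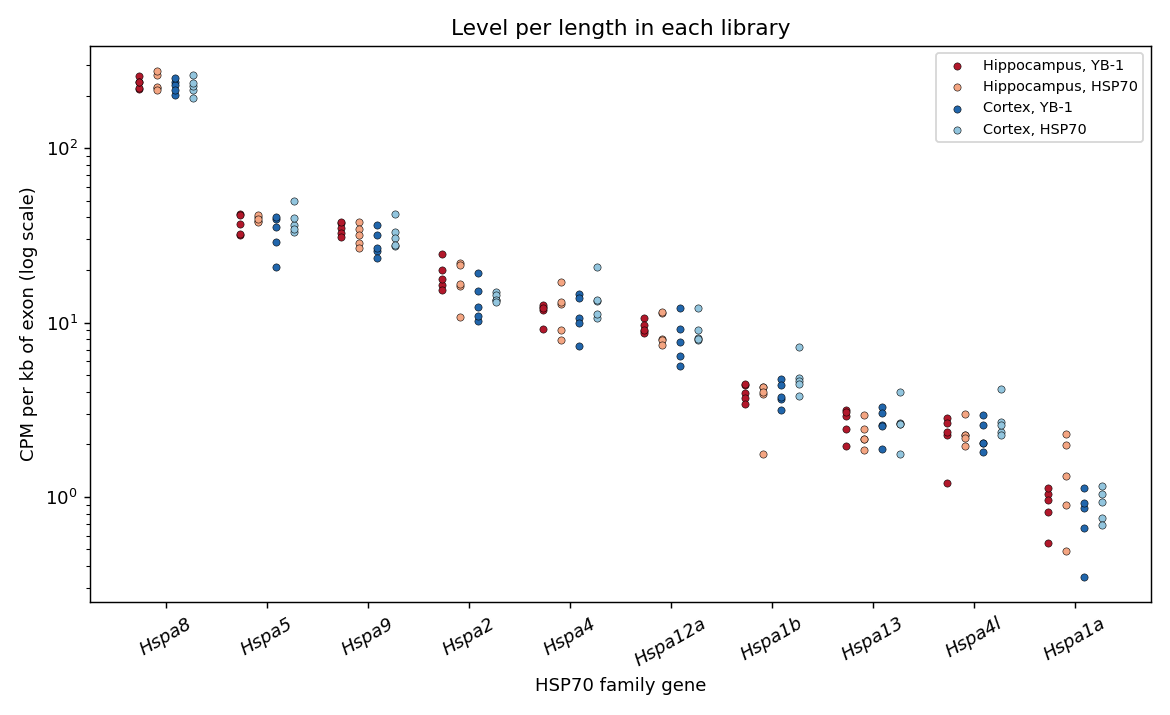
Level of each HSP70 family gene in CPM per kilobase of exon on a log axis, 1 point per library, 5 libraries per group. Hspa8 lies above every other gene in all 20 libraries, and the group means of Hspa1a are the lowest.

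Hspa1a and Hspa1b encode nearly the same protein, and 58.8% of the 50-base stretches of the Hspa1a transcript also occur in Hspa1b. The entry for reads that map to several places was 0 in 20 of 20 libraries, so that how reads common to both copies were assigned cannot be read from the counts, and each copy's own level is uncertain. Hspa1a rested on 11 to 58 reads per library and Hspa1b on 33 to 244. Hspa1a was 19.4 ± 5.63% of the reads of both copies in the hippocampus with YB-1, against 29.1 ± 13.6% with HSP70, and 17.3 ± 5.72% in the cortex with YB-1, against 16.9 ± 5.36% with HSP70 (SD, n = 5 each). The hippocampal HSP70 libraries ranged from 11.6% to 44.1%, and the hippocampal YB-1 libraries, from 11.5% to 26.1%, overlapped them. Summed over both copies, the level was 13.8 ± 0.8 CPM in the hippocampus with YB-1 and 14.4 ± 3.86 with HSP70, and 13.3 ± 2.18 CPM in the cortex with YB-1 and 16.7 ± 3.35 with HSP70.

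**Figure D2:**
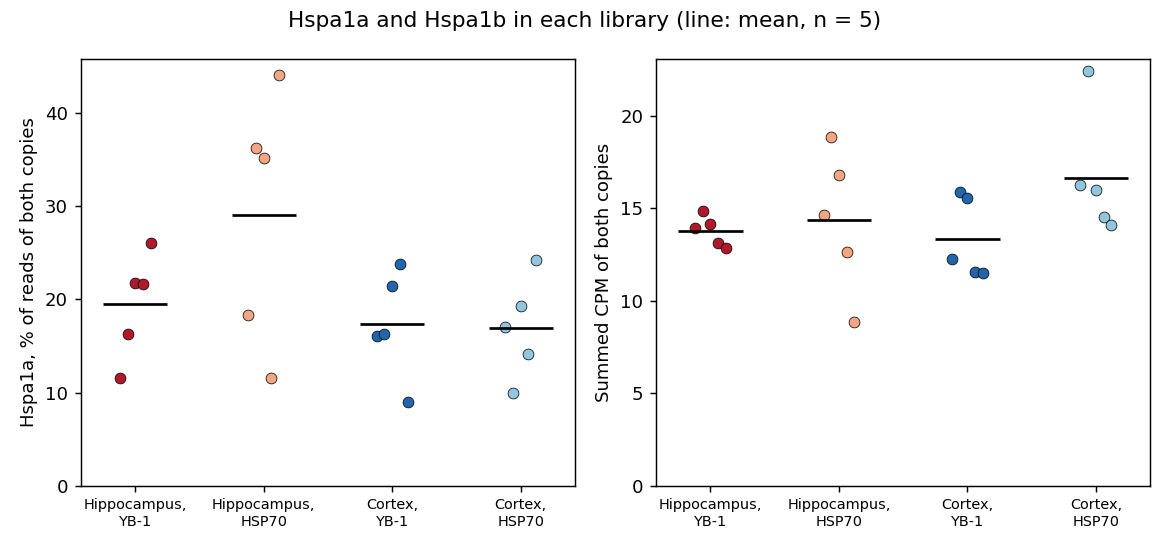
Share of Hspa1a among the reads of Hspa1a and Hspa1b in percent (left) and the summed CPM of both (right), 1 point per library, with the mean of 5 as a line. The 5 hippocampal HSP70 libraries spread from 11.6% to 44.1% in the left panel.

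Between YB-1 and HSP70 in the hippocampus, none of the 10 members passed edgeR's quasi-likelihood test at an adjusted p of 0.05, and neither did any other of 13723 genes (0%). At an unadjusted p under 0.05 there were 329 genes and no member, and DESeq2 called 0 genes. Hspa1a had 1.6, 2.42, 3.07, 2.84 and 3.36 CPM in the 5 YB-1 libraries, against 2.68, 6.84, 5.91, 1.46 and 3.91 in the HSP70 libraries. Its log2 fold change of YB-1 over HSP70 was -0.63 ± 0.40 (SE), with a 95% confidence interval of -1.48 to 0.22. The groups overlapped, and the HSP70 libraries reached both below and above the YB-1 ones. Hspa1b had 12.3, 12.5, 11.1, 10.3 and 9.52 CPM with YB-1, against 11.9, 12, 10.9, 11.2 and 4.96 with HSP70, a log2 fold change of 0.12 ± 0.23 (SE), with a 95% confidence interval of -0.37 to 0.61. The 2 groups overlapped except for the low HSP70 replicate 5, and leaving that library out gave -0.05.

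For the abundant members the intervals were narrower. Hspa8 had 935, 955, 1109, 1035 and 1025 CPM with YB-1, against 945, 963, 1133, 929 and 1187 with HSP70, and its log2 fold change was -0.03 ± 0.11 (SE), with a 95% confidence interval of -0.26 to 0.21. The libraries of the 2 treatments were interleaved. Hspa5 had 177, 175, 155, 133 and 136 CPM with YB-1, against 170.1, 175, 161, 159 and 166 with HSP70, a log2 fold change of -0.10 ± 0.11 (SE), with a 95% confidence interval of -0.34 to 0.14. Hspa9 gave 0.12 ± 0.12 (SE), with a 95% confidence interval of -0.14 to 0.38. Hspa2 spanned -0.30 to 0.52, Hspa4 -0.45 to 0.35, Hspa4l -0.48 to 0.40, Hspa12a -0.28 to 0.34 and Hspa13 -0.17 to 0.61 on the log2 scale. Over the 10 members the median was 0.00 on the log2 scale, and 5 of 10 estimates lay above 0, beside 49.3% above 0 among all genes tested.

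**Figure D3:**
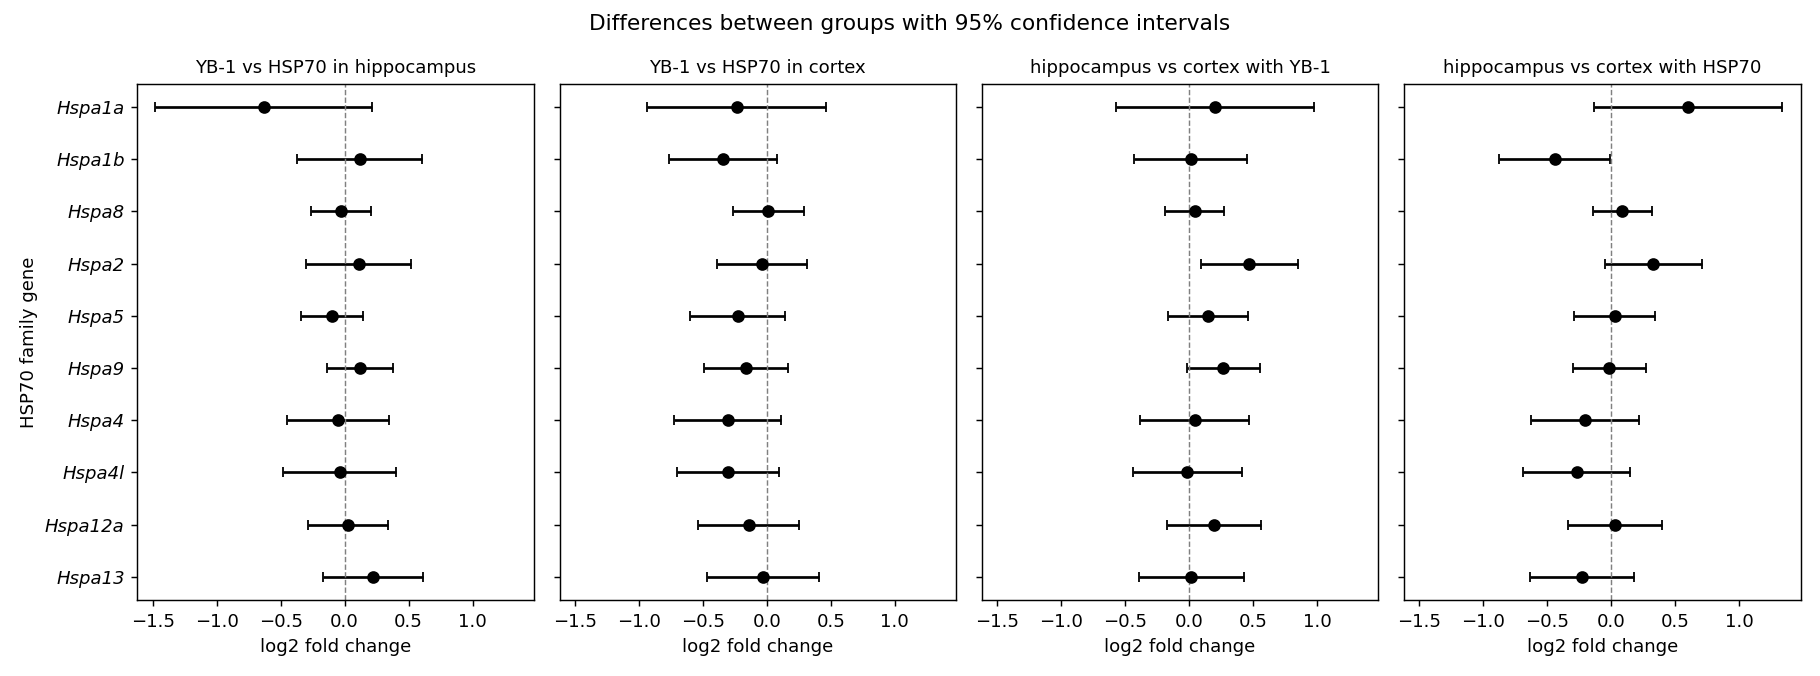
Log2 fold change of each member with its 95% confidence interval, in 4 panels, for YB-1 over HSP70 in each tissue and for hippocampus over cortex with each treatment. The intervals of Hspa8 are the narrowest and those of Hspa1a the widest in each panel.

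In the cortex, too, none of the 10 members and none of 14114 genes passed edgeR's quasi-likelihood test between YB-1 and HSP70 (0%). There were 774 genes and no member at an unadjusted p under 0.05, and DESeq2 called 4 genes, none of them a member. The point estimate was below 0 for 9 of the 10 members, with a median of -0.20, whereas 50.9% of all genes tested lay above 0. That median was -0.09 without the HSP70 replicate 1, -0.10 without the YB-1 replicate 4 and -0.31 without the YB-1 replicate 3. Several members moved together from library to library, as described below, so that the signs of the 10 members are not independent of each other. Hspa1b had 10.3, 13.3, 12.2, 8.81 and 10.5 CPM with YB-1, against 13.5, 20.2, 12.9, 12.5 and 10.7 with HSP70, and a log2 fold change of -0.34 ± 0.20 (SE), with a 95% confidence interval of -0.76 to 0.08, with an adjusted p of 0.858 by the same edgeR test. The groups overlapped, and the highest HSP70 library had 20.2 CPM. Hspa4 had 58.4, 54.7, 80.6, 40.6 and 76.2 CPM with YB-1, against 115, 73, 74.8, 58.9 and 62 with HSP70, a log2 fold change of -0.31 ± 0.20 (SE), with a 95% confidence interval of -0.73 to 0.12. The HSP70 replicate 1 stood above the other 9 libraries, and without it the log2 fold change was -0.12.

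The same library was the highest of the cortical HSP70 group for Hspa2, Hspa4l, Hspa5, Hspa9, Hspa12a and Hspa13 and the lowest for Hspa8. Hspa5 had 149, 123, 167, 88.5 and 171 CPM with YB-1, against 211, 154, 167, 139.6 and 145 with HSP70, and its log2 fold change was -0.23 ± 0.18 (SE), with a 95% confidence interval of -0.60 to 0.14. The YB-1 replicate 4 was the lowest of these 10 libraries. That library also stood apart in its summed striatum markers, at 864 CPM. The other cortical YB-1 libraries had 292 to 402 CPM and the cortical HSP70 libraries 244 to 412. None of the 8 striatum markers was called between the treatments in cortex, and 3 had an unadjusted p under 0.05 by edgeR's test. The part of this in the members' values was not tested. Hspa4l spanned -0.70 to 0.10, Hspa9 -0.49 to 0.16, Hspa12a -0.54 to 0.25, Hspa2 -0.39 to 0.32, Hspa13 -0.47 to 0.41 and Hspa1a -0.93 to 0.47 on the log2 scale. Hspa8 had 1035, 991, 872, 1089 and 921 CPM with YB-1, against 828, 1122, 923, 973 and 1016 with HSP70, a log2 fold change of 0.01 ± 0.13 (SE), with a 95% confidence interval of -0.26 to 0.29. Its libraries overlapped throughout.

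**Figure D4:**
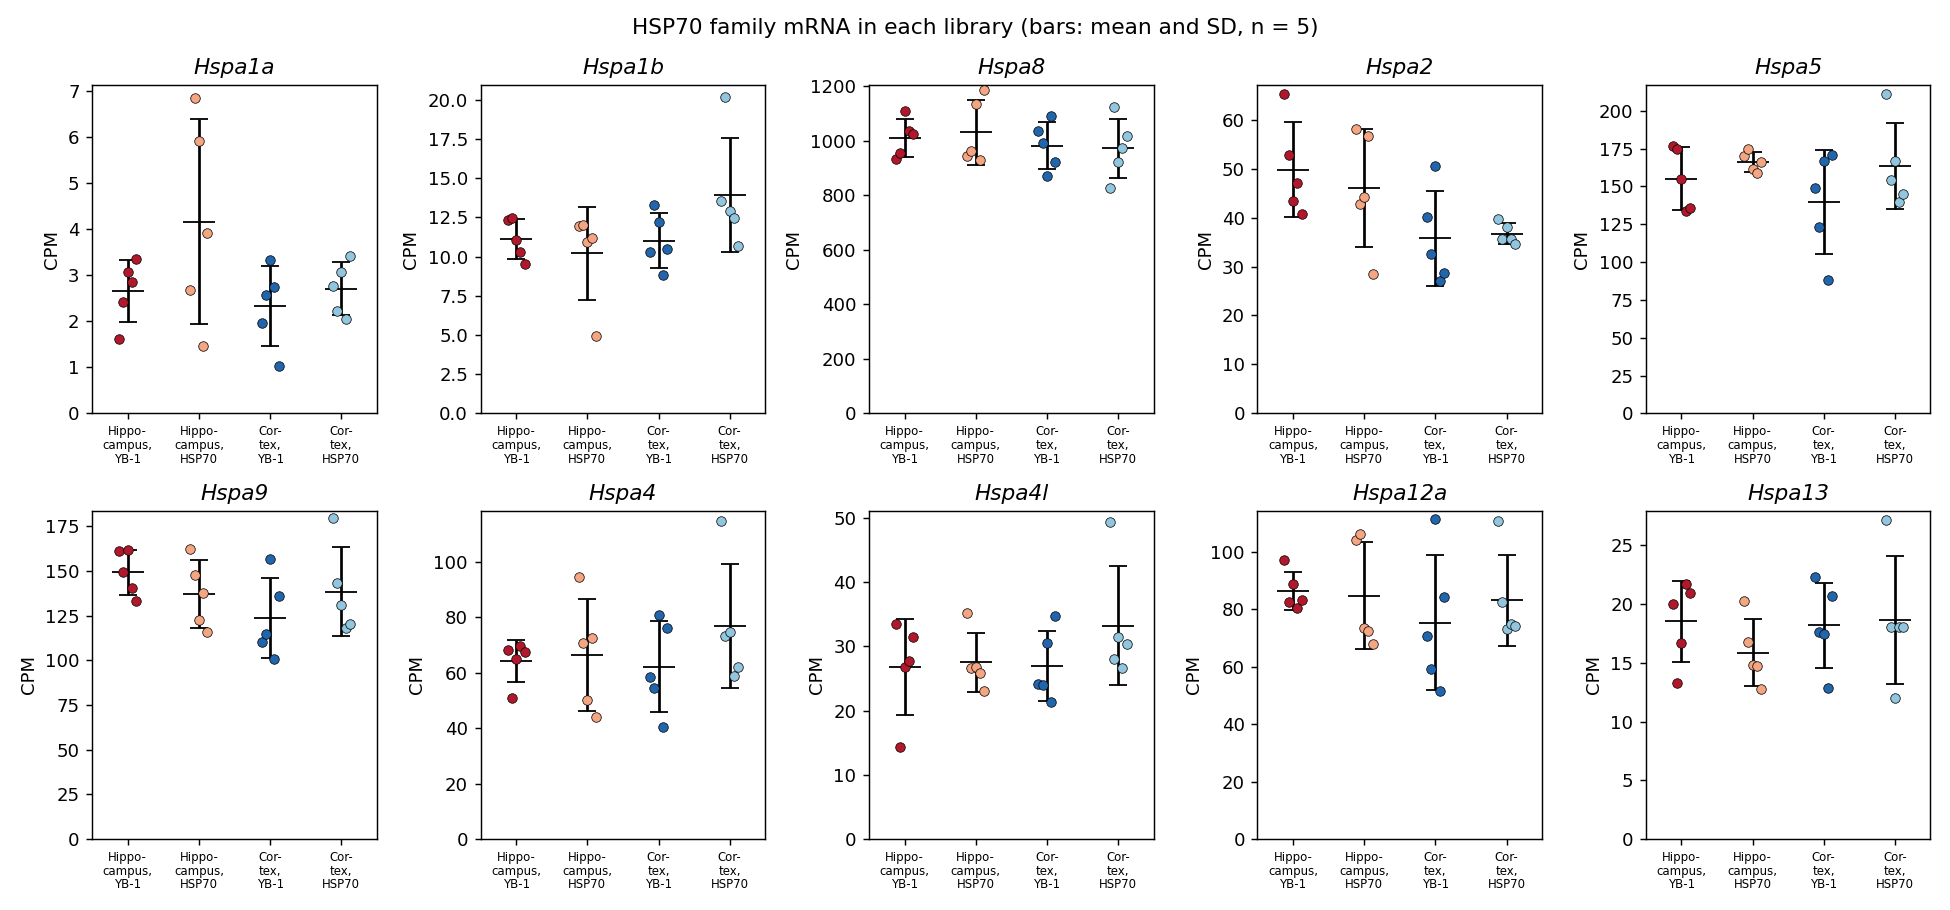
CPM of each of the 10 genes in every library, with the mean and SD of 5 libraries per group; within each tissue the YB-1 group stands left of the HSP70 group. The points of the groups overlap in all 10 panels.

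Hspa9 ranged from 133 to 161 CPM in the hippocampus with YB-1, against 116 to 162 with HSP70, and from 101 to 156 CPM in the cortex with YB-1, against 118 to 179.7 with HSP70. Hspa12a ranged from 80.6 to 97.2 CPM in the hippocampus with YB-1, against 68.1 to 106 with HSP70, and from 51.6 to 111 CPM in the cortex with YB-1, against 73.3 to 111 with HSP70. The groups of both overlapped in each tissue. Hspa4l ranged from 14.3 to 33.5 CPM in the hippocampus with YB-1, against 23 to 35.2 with HSP70, and from 21.3 to 34.7 CPM in the cortex with YB-1, against 26.7 to 49.3 with HSP70. Hspa13 ranged from 13.3 to 21.7 CPM in the hippocampus with YB-1, against 12.8 to 20.3 with HSP70, and from 12.8 to 22.3 CPM in the cortex with YB-1, against 12 to 27.2 with HSP70. These, too, overlapped, and no member had treatment groups that were apart in either tissue, beside 0.474% of all tested genes in the hippocampus and 0.829% in the cortex.

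Between the tissues, 952 of 14616 genes differed with YB-1 (6.51%) and 1259 with HSP70 (8.61%) by edgeR's quasi-likelihood test, and none of the 10 members was among them in either treatment. Hspa2 came nearest with YB-1: it had 65.2, 52.7, 43.3, 47 and 40.7 CPM in the hippocampus, against 40.2, 32.6, 50.6, 27 and 28.8 in the cortex, a log2 fold change of hippocampus over cortex of 0.47 ± 0.18 (SE), with a 95% confidence interval of 0.09 to 0.85, with an adjusted p of 0.16 by that test. The level was higher in the hippocampus in 4 of 5 animals, taking same-numbered libraries as 1 animal. Without the cortical YB-1 replicate 3 the log2 fold change was 0.62, with an edgeR adjusted p of 0.0448, so that 1 library decided the call. With HSP70 Hspa2 had 58.1, 42.8, 44.2, 56.6 and 28.6 CPM in the hippocampus, against 39.6, 35.6, 38.1, 35.7 and 34.6 in the cortex, a log2 fold change of 0.33 ± 0.18 (SE), with a 95% confidence interval of -0.05 to 0.71. The replicate 5 of the hippocampal group lay below all 5 cortical libraries.

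Markers of several cell types moved between the tissues as well. All 8 oligodendrocyte markers were called higher in the hippocampus with each treatment by edgeR's test, with a median log2 fold change of 1.11 with YB-1 and 1.43 with HSP70. Their summed level was 3783 to 5122 CPM in the hippocampus with YB-1, against 1869 to 2547 in the cortex, and 3834 to 7071 CPM in the hippocampus with HSP70, against 1408 to 2342 in the cortex. Of 8 choroid plexus markers, 6 were called higher in the hippocampus with YB-1 and 4 with HSP70, and their sum was 138 to 1052 CPM in the hippocampus with YB-1, against 10.3 to 47.9 in the cortex, and 39.7 to 1692 CPM in the hippocampus with HSP70, against 11.8 to 161 in the cortex. Of 6 thalamus markers, 4 were called higher in the hippocampus with each treatment, and of 5 ependyma markers 3 with YB-1 and 4 with HSP70. Of 6 neuron markers, 1 was called lower in the hippocampus with YB-1 and 2 with HSP70, and their sum was 1864 to 2441 CPM in the hippocampus with YB-1, against 2499 to 3124 in the cortex, and 1945 to 2427 CPM in the hippocampus with HSP70, against 2690.3 to 3268 in the cortex. For the oligodendrocyte, thalamus, ependyma and neuron lists the sums of the tissues did not overlap with either treatment. For the choroid plexus list they were apart with YB-1 and overlapped with HSP70. The part of these cell types in the members' values was not tested, apart from fits with the neuron sum as a covariate.

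Hspa1b had 11.9, 12, 10.9, 11.2 and 4.96 CPM in the hippocampus with HSP70, against 13.5, 20.2, 12.9, 12.5 and 10.7 in the cortex. Its log2 fold change was -0.44 ± 0.21 (SE), with a 95% confidence interval of -0.88 to -0.01, with an adjusted p of 0.24 by edgeR's quasi-likelihood test, and the hippocampal library was the lower one in 5 of 5 animals. The ranges of the 2 tissues overlapped. The other copy, Hspa1a, went the opposite way in these libraries, at 0.60 ± 0.36 (SE), with a 95% confidence interval of -0.13 to 1.34. With the reads of both copies summed the log2 fold change was -0.21, with an edgeR adjusted p of 0.587. With YB-1 the log2 fold change of Hspa1b was 0.01 ± 0.21 (SE), with a 95% confidence interval of -0.43 to 0.45, and Hspa1b was lower in the hippocampus in 3 of 5 animals. Hspa4l was also lower in the hippocampus in 5 of 5 animals with HSP70, at -0.27 ± 0.20 (SE), with a 95% confidence interval of -0.69 to 0.15. How many of all genes lie on 1 side in 5 of 5 animals was not counted, so that these counts of animals have no background. Hspa9 gave 0.27 ± 0.14 (SE), with a 95% confidence interval of -0.02 to 0.56 with YB-1 and -0.01 ± 0.14 (SE), with a 95% confidence interval of -0.30 to 0.27 with HSP70. For Hspa8 the log2 fold change was 0.04 ± 0.11 (SE), with a 95% confidence interval of -0.19 to 0.27 with YB-1 and 0.09 ± 0.11 (SE), with a 95% confidence interval of -0.14 to 0.31 with HSP70.

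Whether the difference between treatments itself differed between the tissues was tested as an interaction, and 0 of 14616 genes (0%) and 0 members passed by edgeR's quasi-likelihood test, with 227 genes and no member at an unadjusted p under 0.05 and 0 genes called by DESeq2. The estimates were above 0 for 8 of 10 members, with a median of 0.21, beside 48.6% of all genes. That median was 0.06 without the cortical HSP70 replicate 1, 0.10 without the cortical YB-1 replicate 4 and 0.13 without the hippocampal HSP70 replicate 5, so that its size rests on a few libraries. Here, too, the signs of the members are not independent of each other. The interval of Hspa1b ran from -0.17 to 1.07 and that of Hspa8 from -0.37 to 0.28. The intervals of the other members all crossed 0.

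Within groups the members differed in how far their libraries spread. On the log2 scale the standard deviation within groups was 0.14 for Hspa8, 0.21 for Hspa9 and 0.25 for Hspa5, and 0.36 for Hspa4 and 0.57 for Hspa1a. The median of all genes tested was 0.36.

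Several members moved together from library to library. Over the 20 libraries, as deviations from their group means, Hspa9 and Hspa12a had a Pearson r of 0.90 (hippocampal libraries alone 0.84, cortical ones 0.93). Hspa4 had an r of 0.87 with Hspa9, 0.82 with Hspa12a and 0.78 with Hspa4l. Hspa8 ran the other way, with an r of -0.74 to Hspa4, -0.70 to Hspa9, -0.66 to Hspa2 and -0.65 to Hspa12a. Among all tested genes 17.0% had an r below -0.5 to Hspa8 and 17.6% above 0.5. These values describe the libraries, which share their animals across the tissues and their depth across genes, and carry no test.

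The library-to-library movement was tested against the Bc1 share, a measure chosen after the values had been seen, in an edgeR quasi-likelihood fit within each tissue that kept the treatment groups and left Bc1 itself out. In the cortex 5 of 10 members fell as the Bc1 share of the library rose, beside 12.3% of genes that fell and 13.5% that rose. The slope, in log2 units per doubling of the Bc1 share, was -0.49 ± 0.09 (SE) for Hspa12a with an edgeR adjusted p of 0.00182, and -0.49 ± 0.10 for Hspa4 with an edgeR adjusted p of 0.00291. The slopes of the other 3 members that passed were -0.41 ± 0.11 for Hspa4l, -0.39 ± 0.10 for Hspa5 and -0.31 ± 0.09 for Hspa9. Hspa8 had a slope of 0.20 ± 0.09 with an edgeR adjusted p of 0.105, which did not pass, and Hspa1b one of 0.05 ± 0.16. Without the cortical HSP70 replicate 1, 1 member passed, Hspa12a, and without the cortical YB-1 replicate 4, 3 members passed. Hspa12a passed in each of the 10 fits that left out 1 cortical library. In the hippocampus none of the 10 members passed, beside 8.86% of genes that rose and 4.83% that fell, although 8 of the 10 estimates were below 0. These signs are not independent of each other, since several members moved together. Without the hippocampal YB-1 replicate 4, 2 members passed there, Hspa4 and Hspa4l. With all 10 libraries Hspa12a had -0.19 ± 0.08 and Hspa8 0.06 ± 0.06. What the Bc1 share stands for in these libraries was not tested, and it was 1 of 6 library measures looked at.

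**Figure D5:**
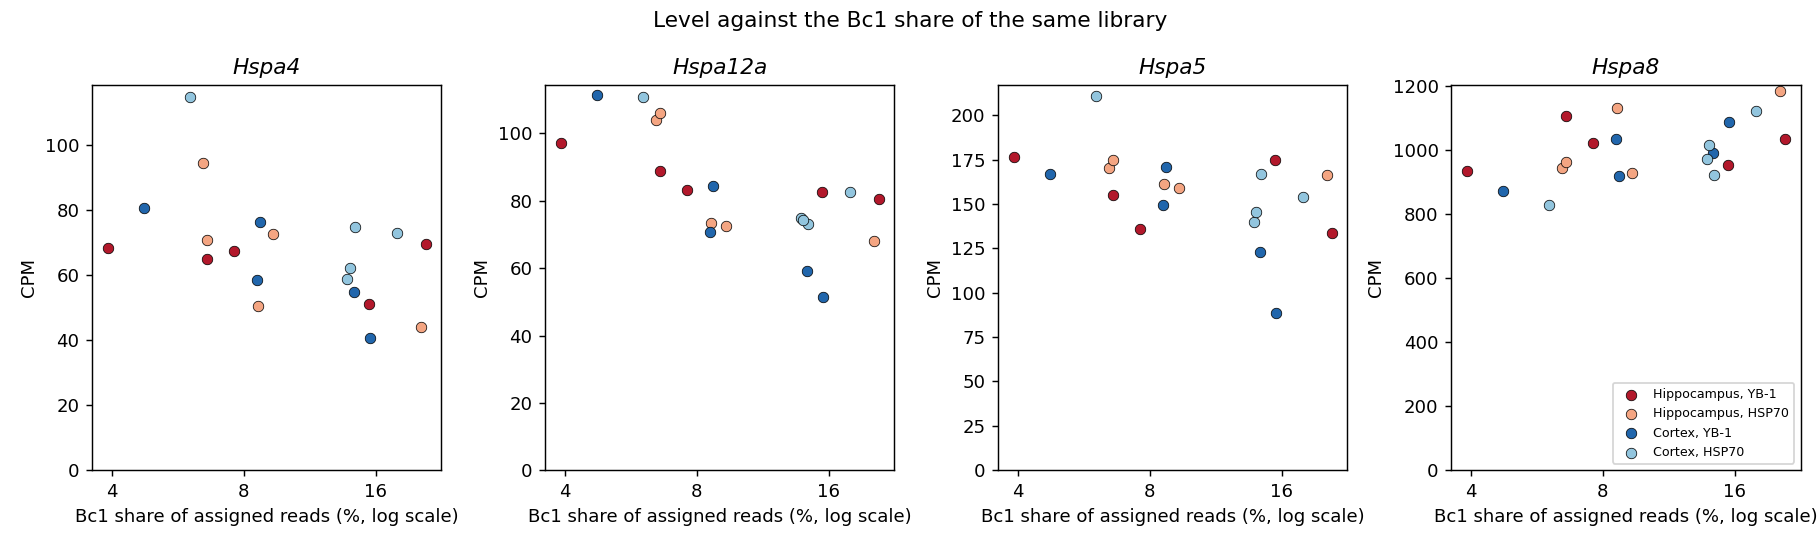
CPM of 4 members against the Bc1 share of the assigned reads of the same library, in percent on a log axis, 1 point per library. Hspa12a is lowest, at 51.6 CPM, in the cortical YB-1 library that holds the highest Bc1 share of its group, and Hspa8 is lowest in the cortical HSP70 library with the lowest share of its group.

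The same fit with each of the other 5 measures showed that the Bc1 share was not the only one that the members followed. With the summed neuron markers, in CPM of all assigned reads, 5 members rose in the cortex, beside 15.2% of genes that rose, and they were the 5 that had passed with the Bc1 share. Their slopes per doubling of the neuron sum were 1.52 ± 0.23 (SE) for Hspa4, 1.39 ± 0.23 for Hspa12a, 1.24 ± 0.27 for Hspa4l, 1.16 ± 0.25 for Hspa5 and 0.96 ± 0.22 for Hspa9. In the hippocampus 2 members rose with the neuron sum, beside 10.9% of genes, at 1.04 ± 0.27 for Hspa4 and 1.13 ± 0.31 for Hspa4l. With the number of detected genes 3 members rose in the cortex, Hspa4, Hspa5 and Hspa12a, beside 7.85% of genes, and none in the hippocampus. Without the cortical HSP70 replicate 1, 3 members passed with the neuron sum and 0 with the detected genes, for which 0 also passed without the cortical YB-1 replicate 4 and 1 without the HSP70 or the YB-1 replicate 5. In the hippocampus the number that passed with the neuron sum ran from 0 without the HSP70 replicate 1 to 4 without the YB-1 replicate 2 or 4. No member passed with the depth, the mitochondrial share or the summed immediate early genes in either tissue. The measures are taken from the same libraries and are not independent of each other, so that these fits do not single 1 of them out.

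The treatment comparison in cortex was then refitted with a library measure as a covariate. In all, 6 measures had been looked at against the members, and each was fitted in turn: the Bc1 share, the number of genes detected, the depth, the mitochondrial share, the summed immediate early genes and the summed neuron markers. With the Bc1 share 1 member was called, Hspa4, beside 1.4% of genes called lower, at a log2 fold change of YB-1 over HSP70 of -0.50 ± 0.13 (SE) and an edgeR adjusted p of 0.0482. With the other 5 measures no member was called in cortex, and of these the depth did not overlap between the treatments. The Bc1 share, too, differed between the cortical groups, with a median of 8.71% with YB-1 against 14.0% with HSP70. Its ranges overlapped, at 4.74% to 15.5% and 6.03% to 17.9%, so that treatment and Bc1 share are not fully separate in that fit. There, 21.7% of all genes had an unadjusted p under 0.05 by edgeR's test. Over the 6 covariates the log2 fold change of Hspa4 ran from -0.50 to 0.05, and that of Hspa5 from -0.39 to 0.25. With the Bc1 share as covariate, Hspa4 passed in 2 of the 10 fits that left out 1 library, and the number of all genes called ran from 0 without the HSP70 replicate 1 to 706 without the YB-1 replicate 5.

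For hippocampus against cortex with YB-1, Hspa2 was called higher in the hippocampus with 3 of the 6 covariates and not with the other 3, and its log2 fold change ran from 0.45 to 0.68. Those 3 were the Bc1 share, beside 5.04% of genes called higher, the genes detected, beside 4.69%, and the summed neuron markers, beside 7.13%. With the neuron markers 4 members were called, Hspa2, Hspa4, Hspa9 and Hspa12a. That covariate itself moved with the tissue, at 1712 to 2778 CPM of all assigned reads in the hippocampus with YB-1, against 2285 to 3291 in the cortex, and on the scaled CPM given above the tissues were apart, so that in this fit tissue and neuron markers cannot be told apart. All of these covariates were chosen after the values had been seen. The measures other than the Bc1 share were fitted only here and for the treatments in cortex. Whether members would be called with them between the tissues with HSP70 was therefore not tested. With the Bc1 share 0 members were called in that comparison.

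Partners of the family were read from 7 lists of co-chaperones, further family members, heat shock targets and immediate early genes. In both treatment comparisons and in the interaction, none of their genes passed edgeR's quasi-likelihood test. In the hippocampus Hspe1, the co-chaperonin of the mitochondrial matrix, had a log2 fold change of YB-1 over HSP70 of 0.48 ± 0.19 (SE), and Hsp90aa1, the inducible cytosolic HSP90, 0.38 ± 0.21. In the cortex Dnaja1, a J-domain partner, gave -0.42 ± 0.18, St13, an adaptor that stabilises the ADP-bound chaperone, -0.43 ± 0.20, and Hspb1, a small heat shock protein, -0.54 ± 0.22. The edgeR adjusted p of these 3 genes was 0.858. All the genes named here were picked for a small p, and their lists as a whole moved little. In the hippocampus 5 of 12 mitochondrial partners (median -0.03) and 7 of 17 heat shock genes (median -0.02) lay above 0. In the cortex 5 of 14 cytosolic J-domain partners and adaptors (median -0.10) and 8 of 17 heat shock genes (median -0.05) did. Of the mitochondrial partners 8 of 12 lay above 0 there (median 0.07).

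Between tissues, 1 of the 17 heat shock factor and target genes was called with YB-1, beside 6.51% of all genes, and 2 with HSP70, beside 8.61%, so that these counts lie near the background. All were lower in the hippocampus. Hsf4, a heat shock factor best known from the lens, fell by 0.74 ± 0.19 on the log2 scale with YB-1 and by 0.67 ± 0.19 with HSP70, with edgeR adjusted p of 0.018 and 0.0266. Hsp90aa1 had -0.27 ± 0.18 with YB-1, which did not pass, and -0.59 ± 0.18 with HSP70, with an edgeR adjusted p of 0.0474. None of the 16 endoplasmic reticulum partners of Hspa5, the 12 mitochondrial partners of Hspa9, the 14 cytosolic J-domain partners and adaptors or the 12 exchange factors was called in either treatment. Of the 20 immediate early genes, which report recent neuronal activity, 2 rose and 2 fell in the hippocampus with YB-1, beside 6.51% of all genes called in either direction, and 2 rose and 5 fell with HSP70, beside 8.61%. The neuron markers, too, differed between the tissues, and their part in these counts was not tested. Nr4a2 stands both in this list and in that of the cortex markers, so that the lists of activity and of region overlap. Nr4a3, an orphan nuclear receptor, rose by 1.55 ± 0.34 with YB-1, while Npas4, an activity-dependent transcription factor, gave -1.80 ± 0.50. Of the 20 immediate early genes, 5 had estimates above 0 with YB-1, with a median of -0.46 over the list. With HSP70 4 lay above 0, with a median of -0.63.

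The genes outside the family whose deviations from the group means were most like those of 3 members were found by Pearson r over the 20 libraries. For Hspa5 they were Gfpt1 (0.89), Tbk1 (0.88), Lrp12 (0.87), for Hspa8 Clk3 (0.91), Hhatl (0.89), Parp6 (0.87), and for Hspa1b 1700008J07Rik (0.84), Cc2d2a (0.83), Irf2bpl (0.82). Among all tested genes, 14.5% had an r over 0.5 to Hspa5, 17.6% to Hspa8 and 8.11% to Hspa1b.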

How the data were processed

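The authors deposited raw read counts, as whole numbers for each Ensembl identifier, made with Trimmomatic, STAR and featureCounts on the GRCm39 assembly, per the submitters' processing notes. Tool versions, gene annotation and strandedness were not given in the sources used here, so overlapping or antisense genes may share reads. RNA was poly(A)-selected and read single-end, per the labels' protocols. Libraries held 6414215 to 15148078 assigned reads, and the 12 summary entries that name no gene were left out (2.45% to 4.58% of a library outside genes and 4.12% to 4.58% ambiguous). Symbols, chromosomes and exon lengths came from GENCODE M21 by identifier, and promoters from RefSeq, both of the earlier assembly GRCm38.

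Differences were fitted by edgeR 4.0.16 (R 4.3.3, TMM scaling, filterByExpr, robust quasi-likelihood, two-sided, Benjamini-Hochberg over all genes tested, threshold 0.05). Treatments were fitted within each tissue, and tissues and the interaction over all 4 groups. CPM are TMM-scaled, and log2 CPM carry a prior count of 2. DESeq2 1.42.0, other scaling, no filter, equal depth, a replicate block, summed Hspa1a and Hspa1b reads and left-out libraries were alternatives. The slopes on the Bc1 share and the other 5 library measures, the 6 covariates and the fit without the 2 libraries with the fewest detected genes were added after the values had been seen. The labels give no animal behind a library, so p-values measure the spread between these libraries. Same-numbered libraries of the 2 tissues deviated together (r 0.21 to 0.39 with YB-1 and 0.20 to 0.62 with HSP70), and their numbers were taken to mark the animal.

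The members and lists were chosen with earlier results of these data known. The text names some of the genes with the smallest p, from some of the lists only.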

Additional observations from a re-analysis of the deposited data

Results flagged for a closer look

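In 40 groups of 5 libraries, taken as each member in each group, 5 held a library whose gap to its nearest neighbour was large for the range of the group by Dixon's criterion, where chance gives about 1 in 20. In the cortex with HSP70 replicate 1 was the high one for 3 members. Hspa4 had 115 CPM, against 58.9 to 74.8 CPM in the other 4 libraries, Hspa4l had 49.3 CPM, against 26.7 to 31.5 CPM and Hspa12a had 111 CPM, against 73.3 to 82.7 CPM. That library had the lowest Bc1 share of its group, 6.03%, and the most detected genes of all, 20712. The cortical slopes of the members on both measures are given above, and fewer members passed without this library. Whether either measure caused these values was not tested. In the hippocampus with HSP70, Hspa1b had 4.96 CPM, against 10.9 to 12 CPM in the other 4, in the library with the fewest detected genes, 16889. In the hippocampus with YB-1, replicate 2 had 51 CPM, against 64.9 to 69.5 CPM for Hspa4 in the other 4 libraries.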

How the results depend on the processing

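In these libraries no member was called under DESeq2, RLE scaling, no filter, equal depth, a replicate block or fits of 1 treatment's libraries, of all 4 groups or without the 2 libraries with the fewest detected genes; of 540 member values recomputed without leaving out single libraries, 483 kept their direction and side, 48 changed sign and 9 passed the threshold, all 9 with a covariate. Covariates other than the Bc1 share were fitted only for the treatments in cortex and for the tissues with YB-1. Genes called in cortex between treatments numbered 4 with DESeq2 and 9 without the filter. With the Bc1 share, genes detected and neuron markers as covariates they numbered 273, 42 and 4. With the Bc1 share at equal depth they numbered 258, and 1 member was called. Between tissues, genes called numbered 1444 with YB-1 and 2621 with HSP70 with the Bc1 share, and 2221 with YB-1 with the neuron markers; members called with YB-1 were 1, 1 and 4 with the Bc1 share, genes detected and neuron markers. Since the replicate numbers paired the tissues, the replicate block was fitted: it gave 1224 genes with YB-1 and 1777 with HSP70 and changed no member call, and with the Bc1 share it gave 1503 and 2279 genes and 1 and 0 members. The numbers did not pair the treatments (r -0.28 to 0.50 in hippocampus and -0.14 to 0.17 in cortex).

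On thinning to equal depth, the log2 fold changes with another sign were Hspa12a -0.0262 for YB-1 over HSP70 in hippocampus, and Hspa1b -0.0112 for hippocampus over cortex with YB-1, and Hspa9 0.00400 for hippocampus over cortex with HSP70. On leaving out the 2 libraries with the fewest detected genes, the log2 fold changes with another sign were Hspa1b -0.0505, Hspa2 -0.0206, Hspa8 0.0253, Hspa12a -0.0443 for YB-1 over HSP70 in hippocampus, and Hspa2 0.0444, Hspa8 -0.0308, Hspa13 0.0629 for YB-1 over HSP70 in cortex, and Hspa1b -0.0534, Hspa4 -0.0726, Hspa13 -0.0781 for hippocampus over cortex with YB-1, and Hspa9 0.0402 for hippocampus over cortex with HSP70, and Hspa2 -0.0698, Hspa5 -2.04e-04, Hspa8 0.0545, Hspa12a -0.0105 for the interaction. On summing the reads of Hspa1a and Hspa1b, the log2 fold changes with another sign were Hspa1b -0.0604 for YB-1 over HSP70 in hippocampus, and Hspa1a -0.21 for hippocampus over cortex with HSP70, and Hspa1a 0.26 for the interaction. On dropping the filter, the log2 fold changes with another sign were Hspa8 -0.0156 for YB-1 over HSP70 in cortex. On taking genes detected as covariate, the log2 fold changes with another sign were Hspa2 0.15, Hspa4 0.0482, Hspa5 0.10, Hspa8 -0.12, Hspa9 0.0101, Hspa12a 0.14, Hspa13 0.21 for YB-1 over HSP70 in cortex. On taking depth as covariate, the log2 fold changes with another sign were Hspa2 0.29, Hspa5 0.25, Hspa8 -0.10, Hspa12a 0.17, Hspa13 0.15 for YB-1 over HSP70 in cortex. On taking immediate early gene sum as covariate, the log2 fold changes with another sign were Hspa13 0.0751 for YB-1 over HSP70 in cortex, and Hspa4l 0.0319 for hippocampus over cortex with YB-1. On taking neuron marker sum as covariate, the log2 fold changes with another sign were Hspa2 0.0193, Hspa8 -0.0397, Hspa13 0.0779 for YB-1 over HSP70 in cortex, and Hspa4l 0.28, Hspa8 -0.0484 for hippocampus over cortex with YB-1. On using DESeq2, the log2 fold changes with another sign were Hspa1b -0.00119 for hippocampus over cortex with YB-1. On using RLE scaling, the log2 fold changes with another sign were Hspa1b -0.00130 for hippocampus over cortex with YB-1. On taking mitochondrial share as covariate, the log2 fold changes with another sign were Hspa1b -0.0302, Hspa4l 0.0658 for hippocampus over cortex with YB-1. On taking Bc1 share as covariate, the log2 fold changes with another sign were Hspa5 -0.0395, Hspa12a -0.10 for hippocampus over cortex with HSP70. On taking Bc1 share as covariate, replicate block, the log2 fold changes with another sign were Hspa12a -0.0638 for hippocampus over cortex with HSP70. The cause was not tested.

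Leaving out each library in turn, with or without the Bc1 share as covariate, genes called, YB-1 vs HSP70 in cortex ran from 0 to 706, members called, YB-1 vs HSP70 in cortex ran from 0 to 3, members called, hippocampus vs cortex with YB-1 ran from 0 to 1, members called, slope on Bc1 share in hippocampus ran from 0 to 2, members called, slope on Bc1 share in cortex ran from 1 to 6, members called, slope on genes detected in hippocampus ran from 0 to 1, members called, slope on genes detected in cortex ran from 0 to 4, members called, slope on neuron marker sum in hippocampus ran from 0 to 4, members called, slope on neuron marker sum in cortex ran from 3 to 6. The ranges that crossed 0 were Hspa1b -0.0505 to 0.18, Hspa2 -0.0206 to 0.21, Hspa4 -0.17 to 0.11, Hspa4l -0.13 to 0.12, Hspa8 -0.0631 to 0.0253, Hspa12a -0.0443 to 0.12 for YB-1 over HSP70 in hippocampus; Hspa2 -0.32 to 0.0444, Hspa8 -0.0449 to 0.12, Hspa13 -0.23 to 0.14 for YB-1 over HSP70 in cortex; Hspa1b -0.0540 to 0.0854, Hspa4 -0.0730 to 0.15, Hspa4l -0.11 to 0.15, Hspa8 -0.00703 to 0.0827, Hspa13 -0.0783 to 0.12 for hippocampus over cortex with YB-1; Hspa5 -0.0276 to 0.13, Hspa9 -0.0835 to 0.0937, Hspa12a -0.0676 to 0.15 for hippocampus over cortex with HSP70; Hspa5 -6.48e-05 to 0.21, Hspa8 -0.10 to 0.0149 for the interaction; Hspa1a -0.19 to 0.16 for the slope on Bc1 share in hippocampus; Hspa1a -0.18 to 0.21, Hspa1b -0.0937 to 0.16 for the slope on Bc1 share in cortex.

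Depth limits Hspa1a most, at 11 to 58 reads per library. In cortex the depths of the treatments did not overlap. The intervals printed with the log2 fold changes give the range of differences these 5 libraries per group leave possible. Near-identical copies leave both the split and the summed level of Hspa1a and Hspa1b uncertain.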
